A study of Mus musculus with 6 samples.

Results

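Collagen genes, the 44 symbols of the form Col, a type number, a and a chain number, were followed among the 38926 gene symbols counted in dorsal root ganglia of wild type C57BL/6 mice. These ganglia hold the cell bodies of sensory neurons with their glia, vessels, connective tissue and immune cells. All animals were females aged 8 to 10 weeks. Ganglia of lumbar levels 3, 4 and 5 were taken from the side of the treated paws, and each sample is a pool of 4 animals. The vincristine group, 3 pools, had received a cumulative 40 µg of vincristine by intraplantar injection, and the vehicle group, 3 pools, had received vehicle. The table names carry a figure of 10 µg, whose relation to 40 µg the sources leave unstated, as they do the make-up of the vehicle. Vincristine is a chemotherapy drug that binds tubulin and is known for damaging peripheral nerves. The question addressed here is whether transcripts for the collagen matrix of the ganglion differ after the drug.

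Collagens are secreted proteins whose alpha chains, built from glycine-led repeats, wind around each other into a rigid helix. Fibrillar types I, III and V assemble into the banded fibrils of connective tissue, and types II and XI do the same in cartilage. Fibril-associated types decorate those fibrils, type VI forms beaded filaments beside them, type IV forms the network of basement membranes, and some types stay anchored in the cell membrane. In peripheral nerve and ganglion, fibroblasts make most of the fibrils, while Schwann cells, vessels and satellite glia rest on basement membranes that contain type IV.

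The 42 collagen genes with enough reads to be tested showed no difference between the groups that passed the threshold. By edgeR 0 of 42 had an adjusted p under 0.05, against 0.359% of all 16706 genes tested (0.293% higher and 0.0658% lower), and the smallest edgeR adjusted p was 0.416, for Col16a1. At an unadjusted p under 0.05 stood 1 of 42 members (2.38%), against 11.4% of all genes. That count depended on the fit: it was 6 of 42, all higher, with limma-voom and quality weights (14.3%, against 17.2% of all genes). Without vincristine library 1 it was 4 of 42 by edgeR (9.52%, against 13% of all genes) and 7 of 42 by DESeq2 (16.7%, against 10.9% of all genes), with 2 higher in each. DESeq2 also called 0 of 42, against 3.41% of all genes. Limma-voom with sample quality weights called 0 of 42, against 474 of all 16706 genes. With each library left out in turn, edgeR called between 0 and 346 genes in all and 0 collagen genes each time. Log2 fold changes (vincristine over vehicle) were above 0 in 14 members and below 0 in 28, with a median of -0.09 beside -0.00 over all genes. By edgeR that median was -0.29 without vincristine library 1 and -0.24 without vehicle library 2, but 0.12 without vincristine library 3 and 0.10 without vehicle library 3, so its sign rested on single libraries. Single members ranged from -0.90 for Col10a1, which was at -0.22 without vehicle library 3, to 0.50 for Col7a1. The 95% interval of the log2 fold change lay wholly between -1 and 1 for 27 members and reached past those limits for 15. The number inside the limits was 20 to 29 with 1 library left out. In bulk tissue, fewer cells of a type and less RNA per cell cannot be told apart, and this holds for each difference below.

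**Figure D1:**
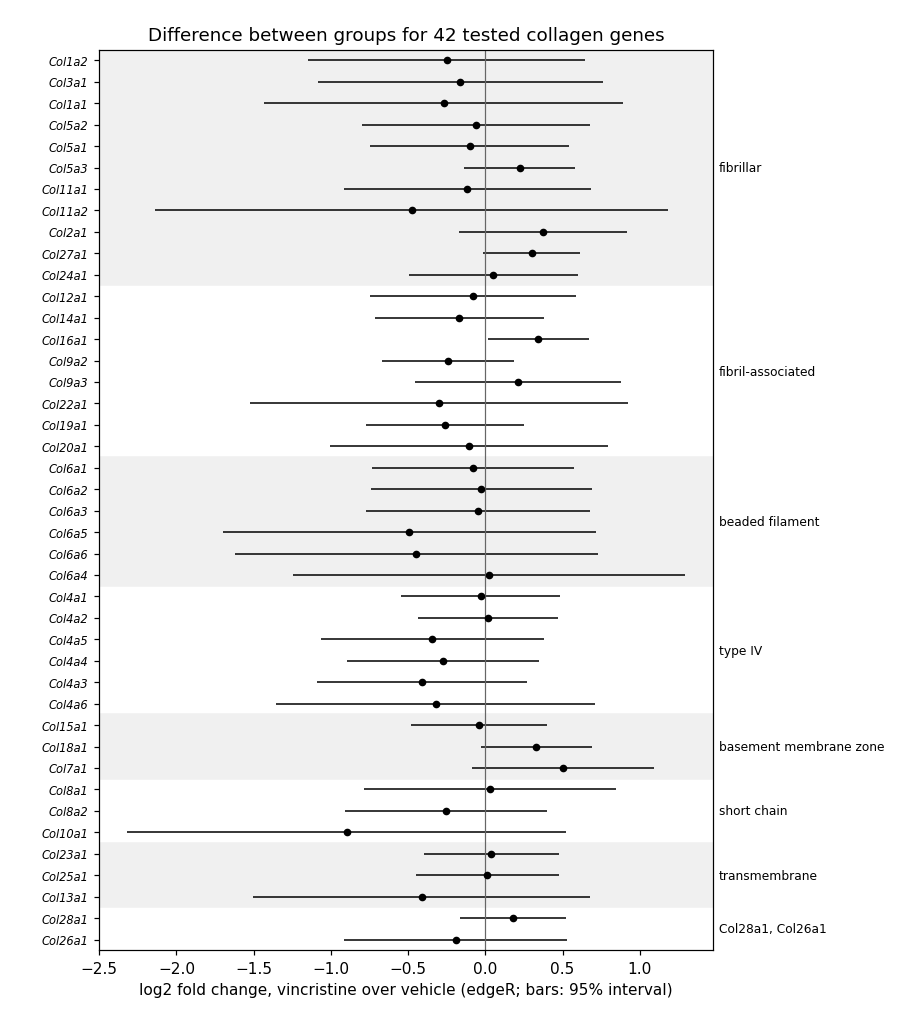
Log2 fold change of vincristine over vehicle by edgeR for the 42 tested collagen genes, arranged by class, with 95% intervals as bars (3 libraries a group). The interval of Col16a1, 0.01 to 0.67, is the 1 that leaves out 0, and Col11a2 and Col10a1 have the widest intervals.

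Reads counted in genes were 12374331, 19406150 and 26346304 in vincristine libraries 1, 2 and 3, and 17967934, 19546519 and 19917055 in vehicle libraries 1, 2 and 3. Vincristine library 1 stood apart, with a sample quality weight of 0.194 where the other 5 lay between 0.849 and 2.66. Levels are given as CPM, the reads of a gene scaled to library size (TMM). The 9 markers of sensory neurons were present throughout and summed to 2877, 6220 and 7678 CPM in vincristine and 5720, 7509 and 7061 CPM in vehicle libraries, lowest in vincristine library 1. Median log2 fold changes of the marker lists were -0.41 for neurons, 0.16 for satellite glia, -0.02 for Schwann cells, 0.04 for endothelium and 0.10 for mural and smooth muscle cells. They were 2.02 for neutrophils, 1.95 for erythroid cells, 0.75 for osteoclasts, 1.07 for skeletal muscle and -3.28 for the B lineage. Of all these lists only the B lineage had members called by edgeR, 6 of 8 lower, while DESeq2 called 7 of 8 B lineage markers lower and 9 of 11 neutrophil, 7 of 7 erythroid and 1 of 6 osteoclast markers (Mmp9) higher. The part of these cell types in the collagen values was not tested.

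Per kilobase of transcript, chains of types I and III were far above all other collagens. Col1a2 averaged 276 ± 95.9 CPM per kilobase in vincristine and 328 ± 134 in vehicle libraries (SD, n = 3 each), followed by Col3a1 at 267 ± 112 and 299 ± 93.1 and Col1a1 at 233 ± 101 and 281 ± 166. The order among these was smaller than their spread. Next came Col6a1, Col6a2 and Col4a1, at 65.1, 63.7 and 62.6 CPM per kilobase over all 6 libraries, which also lay within each other's spread. Col15a1 (47.1), Col4a2 (36.6), Col12a1 (32.9), Col8a1 (32.6), Col5a2 (31.3) and Col28a1 (24.7) filled the ranks after them. At the low end Col9a1 and Col17a1 had 5 to 11 reads in every library and were not tested. Together the 44 genes took 1.05%, 0.836% and 0.491% of the reads in genes in vincristine libraries 1, 2 and 3, and 0.848%, 0.574% and 1.16% in vehicle libraries 1, 2 and 3. The ranges of the groups overlapped.

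**Figure D2:**
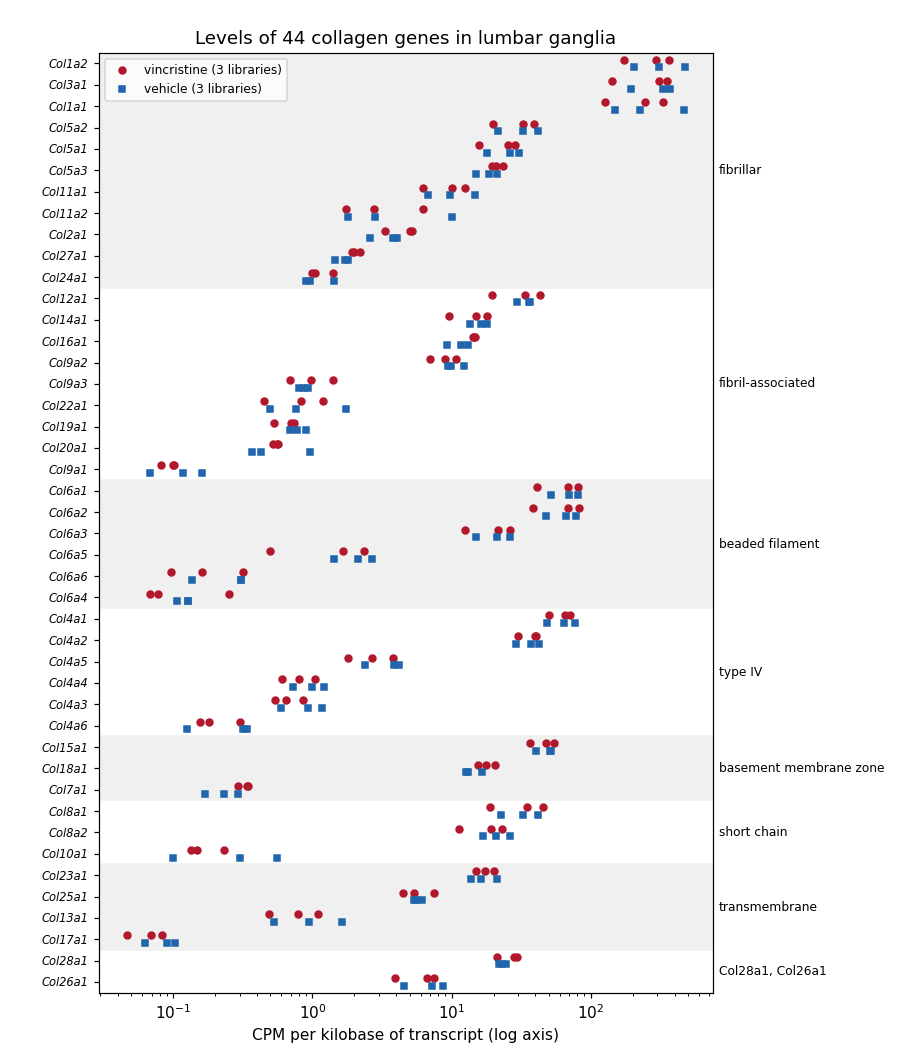
Level of each of the 44 collagen genes in CPM per kilobase of transcript on a log axis, with 1 point for each library (circles, vincristine; squares, vehicle) and genes arranged by class. Col1a2, Col3a1 and Col1a1 lie at the right, above 100 CPM per kilobase in each library, and Col9a1 and Col17a1 lie near 0.1.

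Fibrillar collagens, 11 genes, made up 63.2 ± 3.79% of all collagen CPM in vincristine and 65.5 ± 5.52% in vehicle libraries (SD, n = 3 each). Of them 0 of 11 were called and the median log2 fold change was -0.10. Col1a1, a chain of the main collagen of skin, tendon and bone, was at 1941, 1452 and 751 CPM in vincristine libraries 1, 2 and 3, against 1341, 884 and 2772 CPM in vehicle libraries 1, 2 and 3. Vehicle library 3 was the highest and vincristine library 3 the lowest of all 6, while vincristine libraries 1 and 2 lay above vehicle libraries 1 and 2, so the groups overlapped. Its log2 fold change was -0.27 ± 0.49 (SE; 95% interval -1.43 to 0.89; edgeR adjusted p = 0.868). Without vehicle library 3 it was 0.31.

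Col1a2, the partner chain of Col1a1, was at 1936, 1569 and 923 CPM in vincristine and 1638, 1100 and 2524 CPM in vehicle libraries (log2 fold change -0.25 ± 0.38, edgeR adjusted p = 0.839). Col3a1, which co-assembles with type I in elastic tissues, was at 1973, 1703 and 787 CPM in vincristine and 1843, 1080 and 2068 CPM in vehicle libraries (log2 fold change -0.16 ± 0.39, edgeR adjusted p = 0.905). In both groups the library order was the same for these chains: 1 above 2 above 3 in vincristine and 3 above 1 above 2 in vehicle. Col5a1 and Col5a2, chains of type V that set fibril diameter, held this order too, between 132 and 259 CPM in vincristine and between 142 and 276 CPM in vehicle libraries. Col5a3, the type V chain known in rat as a product of Schwann cells, was at 128, 142 and 119 CPM in vincristine and 113, 91.6 and 129 CPM in vehicle libraries. Its highest over lowest library was a factor of 1.55, against 3.69 for Col1a1. The log2 fold change of Col5a3 was 0.22 ± 0.15 (edgeR adjusted p = 0.628).

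Col27a1, a fibrillar chain best known from developing cartilage, had groups that did not overlap. It was at 16.8, 15.1 and 14.7 CPM in vincristine and 13.2, 10.99 and 13.6 CPM in vehicle libraries (log2 fold change 0.30 ± 0.13, 95% interval -0.01 to 0.62, edgeR adjusted p = 0.458). Such separation, in either direction, was found in 3 of 42 members (7.14%) and in 21.0% of all genes tested. Col24a1, a chain of forming bone, was at 9.99, 7.15 and 7.44 CPM in vincristine and 6.44, 6.88 and 10.2 CPM in vehicle libraries, with overlapping groups.

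Promoters of a pair of these abundant fibrillar genes are shown because their transcripts followed the same order across libraries. Windows run from 250 bases before to 50 bases after the annotated start, from RefSeq on GRCm38.p6. They are Col1a2 at chr6:4505368-4505667 on the plus strand and Col3a1 at chr1:45311288-45311587 on the plus strand. Capitals mark each match, on either strand, of 4 short motifs: CCAAT, which NF-Y can bind, GGGCGG, which Sp1 can bind, TATAAA, which the core promoter machinery can bind, and TGANTCA, which AP-1 can bind, with N for any base. No matches overlapped.
Col1a2: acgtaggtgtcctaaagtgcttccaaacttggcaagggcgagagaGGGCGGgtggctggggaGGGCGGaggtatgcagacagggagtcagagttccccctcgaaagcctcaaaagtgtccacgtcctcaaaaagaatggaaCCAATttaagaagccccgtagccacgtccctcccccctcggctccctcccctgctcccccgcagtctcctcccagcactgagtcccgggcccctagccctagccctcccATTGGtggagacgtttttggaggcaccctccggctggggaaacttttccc
Col3a1: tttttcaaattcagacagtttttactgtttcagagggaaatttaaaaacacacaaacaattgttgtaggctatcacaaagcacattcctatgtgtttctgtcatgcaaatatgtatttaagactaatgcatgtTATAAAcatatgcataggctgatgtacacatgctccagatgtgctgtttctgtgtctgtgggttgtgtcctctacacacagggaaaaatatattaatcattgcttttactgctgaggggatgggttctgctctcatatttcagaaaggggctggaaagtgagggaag
Col1a2 held matches of CCAAT and GGGCGG in a window of 61.0% G and C, while Col3a1, at 37.7% G and C, held only TATAAA. Of all 32851 windows of this length, 37.4% held CCAAT, 35.7% held GGGCGG, 13.6% held TATAAA and 7.81% held TGANTCA. Over the 38 windows of 35 collagen genes the shares were 34.2%, 60.5%, 13.2% and 2.63% in the same order of motifs. The single collagen window with TGANTCA was that of Col6a1. A match is a run of letters and not a measured site.

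Fibril-associated collagens, 9 genes with 8 tested, had 0 called and a median log2 fold change of -0.14. Col16a1, a fibril-associated collagen that binds integrins, was at 75.4, 76.3 and 73.8 CPM in vincristine and 60.7, 48.4 and 68.8 CPM in vehicle libraries. All vincristine libraries lay above all vehicle libraries, and they lay within 2.53 CPM of each other. The log2 fold change was 0.34 ± 0.14 (95% interval 0.01 to 0.67, edgeR adjusted p = 0.416), higher in 3 of 3 vincristine libraries. By edgeR, across all genes, its p before adjustment was the 1 collagen value under 0.05. Over all alternatives its adjusted p was 0.166 or above and its log2 fold change ranged from 0.22 to 0.46.

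Col12a1, which links type I fibrils in fascia and tendon, was the most abundant of this class at 494, 387 and 225 CPM in vincristine and 411, 337 and 421 CPM in vehicle libraries (log2 fold change -0.08 ± 0.28, edgeR adjusted p = 0.941). Col14a1, a close relative, was at 115, 97.0 and 62.1 CPM in vincristine and 115, 87.0 and 105 CPM in vehicle libraries. Each thus had vincristine library 3 as its lowest. Col22a1, a collagen of the muscle to tendon junction, spread more: 10.5, 7.31 and 3.97 CPM in vincristine and 6.67, 4.38 and 15.3 CPM in vehicle libraries. Col19a1, which neurons make in the mouse brain, ran the other way, with its lowest value, 2.25 CPM, in vincristine library 1 and its highest, 3.86 CPM, in vehicle library 2. Col20a1 was between 2.35 and 2.55 CPM in vincristine and between 1.67 and 4.35 CPM in vehicle libraries.

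Type VI collagen, the beaded filament class, had 6 tested members with 0 called and a median log2 fold change of -0.06. Col6a1 was at 329, 281 and 169 CPM in vincristine and 283, 211 and 329 CPM in vehicle libraries (log2 fold change -0.08 ± 0.28, 95% interval -0.73 to 0.57, edgeR adjusted p = 0.938). Col6a2 and Col6a3, the chains it assembles with, repeated this pattern, with log2 fold changes of -0.03 ± 0.30 and -0.05 ± 0.31. Col6a5, a later-found chain that can stand in for Col6a3, varied most in the class. It was at 21.7, 15.5 and 4.59 CPM in vincristine and 19.8, 13.2 and 24.7 CPM in vehicle libraries (log2 fold change -0.49 ± 0.51, edgeR adjusted p = 0.748; -0.05 without vincristine library 3), and the low value of vincristine library 3 stood below all the others. Col6a6 was at 2.79, 1.41 and 0.848 CPM in vincristine and 2.69, 1.20 and 2.70 CPM in vehicle libraries (log2 fold change -0.45 ± 0.50, edgeR adjusted p = 0.767). Col6a4 stayed between 0.501 and 1.86 CPM over all 6 libraries. Genes on the opposite strand overlap exons of Col6a4 and Col6a6, and also of Col4a1, Col4a2, Col5a1, Col15a1 and Col22a1. Whether the counting used strand is unstated, so such reads cannot be told apart. Genes on the same strand overlap exons of Col3a1, Col7a1 and Col20a1.

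Type IV collagen, the network of basement membranes, had 6 tested members, 0 called and a median log2 fold change of -0.30. Col4a1 was at 433, 465 and 331 CPM in vincristine and 425, 321 and 510 CPM in vehicle libraries (log2 fold change -0.03 ± 0.22, 95% interval -0.55 to 0.49, edgeR adjusted p = 0.971). Col4a2, its constant partner in basement membranes throughout the body, was at 262, 258 and 193 CPM in vincristine and 241, 188 and 275 CPM in vehicle libraries (log2 fold change 0.02 ± 0.19, 95% interval -0.43 to 0.47, edgeR adjusted p = 0.983). The groups of both overlapped, and highest over lowest library was a factor of 1.59 and 1.46 for the pair. The chains of specialised basement membranes, known best from kidney, were low: Col4a5 was at 24.7, 17.6 and 11.8 CPM in vincristine and 25.3, 15.6 and 27.3 CPM in vehicle libraries (log2 fold change -0.34 ± 0.31, edgeR adjusted p = 0.706). Col4a3 was at 7.36, 5.53 and 4.62 CPM in vincristine and 9.97, 5.11 and 8.00 CPM in vehicle libraries (log2 fold change -0.41 ± 0.29, 95% interval -1.09 to 0.27, edgeR adjusted p = 0.639). A gene on the opposite strand overlaps exons of Col4a3. Col4a4 was between 6.09 and 10.5 CPM in vincristine and between 7.29 and 12.3 CPM in vehicle libraries, and Col4a6 stayed below 2.25 CPM in each library.

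These 6 genes lie as head-to-head pairs on GRCm38, Col4a1 with Col4a2 on chromosome 8, Col4a4 with Col4a3 on chromosome 1 and Col4a6 with Col4a5 on chromosome X. In GENCODE M21 Col4a1 and Col4a2 overlap by 22 bases at their starts, 71 bases lie between Col4a4 and Col4a3, and 1308 bases lie between Col4a6 and Col4a5. The Col4a1 window at chr8:11312777-11313076 on the minus strand and the Col4a2 window at chr8:11312555-11312854 on the plus strand share 78 bases. They are shown, marked as above, because these genes are transcribed away from each other out of 1 stretch of DNA.
Col4a1: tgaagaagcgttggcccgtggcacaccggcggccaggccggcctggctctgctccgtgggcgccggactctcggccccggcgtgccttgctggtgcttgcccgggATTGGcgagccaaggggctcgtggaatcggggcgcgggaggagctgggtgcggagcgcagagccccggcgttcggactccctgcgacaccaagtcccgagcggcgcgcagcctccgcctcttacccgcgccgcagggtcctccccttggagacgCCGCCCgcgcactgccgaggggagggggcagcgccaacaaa
Col4a2: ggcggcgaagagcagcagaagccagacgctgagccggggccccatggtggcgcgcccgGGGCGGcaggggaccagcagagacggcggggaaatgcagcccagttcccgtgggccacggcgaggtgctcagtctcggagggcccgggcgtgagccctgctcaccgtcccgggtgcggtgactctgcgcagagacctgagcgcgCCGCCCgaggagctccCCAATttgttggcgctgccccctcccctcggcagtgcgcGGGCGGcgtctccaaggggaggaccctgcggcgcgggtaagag
The GC box at base 260 of the Col4a1 window and that at base 258 of the Col4a2 window are the same letters of the genome, chr8:11312812-11312817, read on opposite strands.

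At the basement membrane zone, Col18a1, the heparan sulphate collagen whose end fragment is endostatin, was at 114, 98.5 and 86.0 CPM in vincristine and 92.4, 71.3 and 73.8 CPM in vehicle libraries. Vincristine library 3 lay below vehicle library 1, and the other 2 vincristine libraries lay above all vehicle libraries. The log2 fold change was 0.33 ± 0.15 (95% interval -0.03 to 0.69, edgeR adjusted p = 0.481). Col15a1, its close relative in vessels, muscle and nerve, had a log2 fold change of -0.04 ± 0.19 (edgeR adjusted p = 0.955), with 283, 247 and 189.5 CPM in vincristine and 261, 209.7 and 269.7 CPM in vehicle libraries. Col7a1, the anchoring fibril collagen of skin, was at 2.71, 3.13 and 3.20 CPM in vincristine and 2.13, 1.56 and 2.70 CPM in vehicle libraries. Its groups did not overlap, by a margin within the last digit, and its log2 fold change was 0.50 ± 0.25 (edgeR adjusted p = 0.509). It rests on 35 reads in vincristine library 1 and 30 in vehicle library 2.

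Cartilage types were present at low to moderate level and were not called, 0 of the 6 tested out of 7. Col2a1, the main cartilage fibril, was at 25.5, 26.6 and 17.1 CPM in vincristine and 20.7, 13.2 and 19.3 CPM in vehicle libraries (log2 fold change 0.38 ± 0.23, edgeR adjusted p = 0.593). Col11a1, found with type II in cartilage and with type V elsewhere, was at 95.7, 77.5 and 47.8 CPM in vincristine and 74.2, 51.5 and 113 CPM in vehicle libraries (log2 fold change -0.12 ± 0.34, edgeR adjusted p = 0.922). Its order over libraries was that of Col1a1, not that of Col2a1. Col11a2 spread most of all tested collagens, with 33.7, 14.9 and 9.36 CPM in vincristine and 15.3, 9.80 and 54.3 CPM in vehicle libraries, a factor of 5.80 from lowest to highest. Its log2 fold change was -0.48 ± 0.71 (95% interval -2.14 to 1.19, edgeR adjusted p = 0.832), and 0.60 without vehicle library 3. Col9a2, a chain on the surface of cartilage fibrils, was at 31.5, 26.3 and 20.5 CPM in vincristine and 35.8, 29.1 and 27.6 CPM in vehicle libraries (log2 fold change -0.24 ± 0.18, edgeR adjusted p = 0.655). Its partner chains were far lower: Col9a3 was at 4.26, 2.98 and 2.12 CPM in vincristine and 2.63, 2.45 and 2.85 CPM in vehicle libraries (log2 fold change 0.21 ± 0.28, edgeR adjusted p = 0.810), and Col9a1 stayed below 0.62 CPM in each library. Exons of Tcfl5 overlap Col9a3 on the opposite strand. Col10a1, the marker of cartilage cells about to be replaced by bone, was at 0.465, 0.731 and 0.424 CPM in vincristine and 0.952, 0.313 and 1.75 CPM in vehicle libraries (log2 fold change -0.90 ± 0.60, 95% interval -2.32 to 0.52, edgeR adjusted p = 0.621). That is 6 reads in vincristine library 1 and 6 in vehicle library 2, and Nt5dc1 overlaps it on the opposite strand.

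The short-chain collagens Col8a1 and Col8a2 form networks under endothelium and in the cornea. Col8a1 was at 232, 178 and 96.4 CPM in vincristine and 166, 115 and 213 CPM in vehicle libraries (log2 fold change 0.03 ± 0.35, edgeR adjusted p = 0.984), and Col8a2 was at 99.8, 83.1 and 48.8 CPM in vincristine and 113, 72.6 and 89.9 CPM in vehicle libraries (log2 fold change -0.25 ± 0.28, edgeR adjusted p = 0.764). Both had vincristine library 3 as their lowest. Of the membrane-anchored collagens, Col23a1 led at 98.4, 113 and 85.0 CPM in vincristine and 119, 91.9 and 77.9 CPM in vehicle libraries (log2 fold change 0.04 ± 0.19, edgeR adjusted p = 0.958), in another library order than Col1a1. Col25a1, needed in mouse for motor axons to innervate muscle, was between 11.8 and 19.6 CPM in vincristine and between 14.1 and 16.0 CPM in vehicle libraries. Col13a1, a collagen of the neuromuscular junction, was at 3.48, 2.51 and 1.54 CPM in vincristine and 2.97, 1.67 and 5.15 CPM in vehicle libraries (log2 fold change -0.41 ± 0.46, edgeR adjusted p = 0.767). Col17a1, of the hemidesmosomes of skin, stayed below 0.58 CPM in each library.

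Col28a1, a collagen known in mouse for its restriction to peripheral nerve and ganglion, where it surrounds non-myelinating glia, had the smallest factor between its highest and lowest library of all tested collagens. It was at 90.0, 124 and 119 CPM in vincristine and 105, 92.1 and 97.5 CPM in vehicle libraries, a factor of 1.38. By SD of log2 CPM within groups, Col27a1 (0.13) and Col16a1 (0.18) varied less than Col28a1 (0.19). The groups overlapped through vincristine library 1, and the log2 fold change was 0.18 ± 0.15 (95% interval -0.16 to 0.53, edgeR adjusted p = 0.679). Without vincristine library 1, the library with the low level of neuronal markers, the DESeq2 adjusted p was 0.112, the smallest of any collagen under any alternative. Col26a1, a collagen described in reproductive tissue of mouse, was at 20.5, 18.01 and 10.8 CPM in vincristine and 19.8, 12.3 and 23.8 CPM in vehicle libraries (log2 fold change -0.19 ± 0.31, edgeR adjusted p = 0.847), in the library order of Col1a1.

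Collagen levels differed more between libraries of the same group than those of most genes. The SD of log2 CPM within groups had a median of 0.43 over the 42 members and 0.21 over all genes tested, and 36 of 42 members lay above that all-gene median (34 to 38 with 1 library left out). Where the mean reached 10 CPM or more, the median over all genes was 0.17 and 28 of 29 collagens lay above it. By class the median SD was 0.54 for short-chain genes, 0.49 for fibrillar and 0.49 for type VI genes, 0.38 for type IV, 0.33 for fibril-associated genes and for Col26a1 with Col28a1, 0.26 for transmembrane and 0.24 for basement membrane zone genes. The spread had a shared direction. Within the vincristine group 33 of 42 members were highest in library 1 and 38 of 42 lowest in library 3. Within the vehicle group 30 of 42 were highest in library 3 and 36 of 42 lowest in library 2. Both full orders, 1 above 2 above 3 in vincristine and 3 above 1 above 2 in vehicle, which were picked after the values were seen, held in 23 of 42 collagens (54.8%) and in 5.84% of all genes tested. By class they held in 8 of 11 fibrillar, 5 of 6 type VI, 4 of 8 fibril-associated and 2 of 6 type IV genes.

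**Figure D3:**
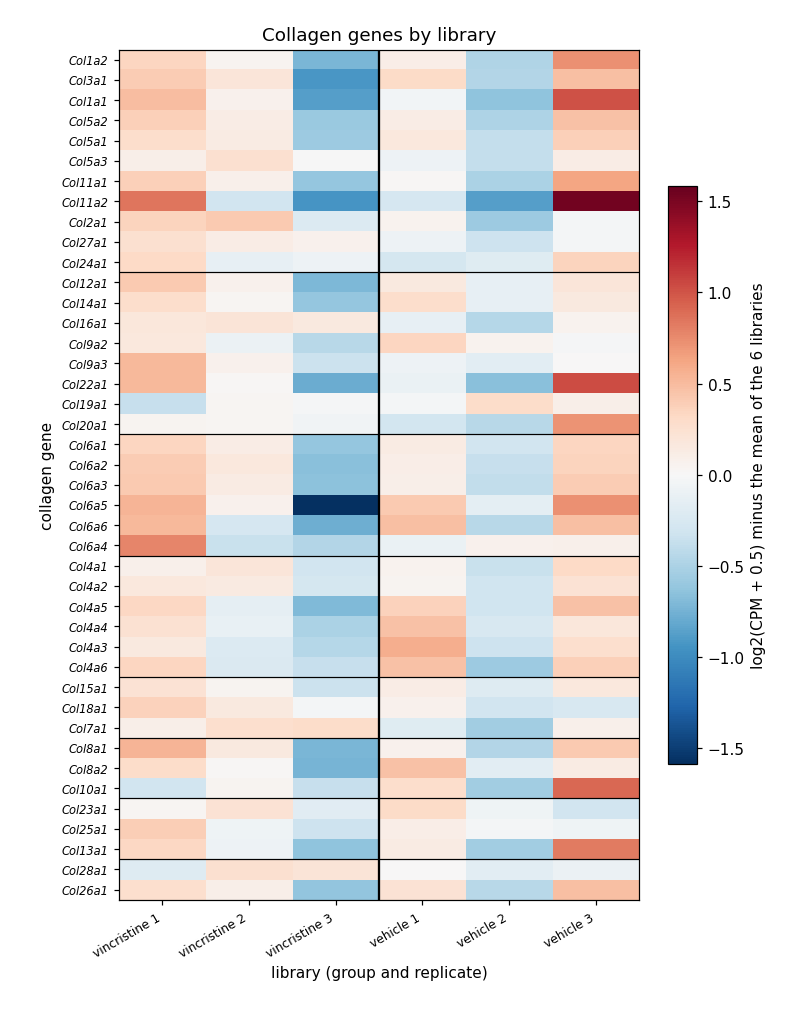
Heat map of log2(CPM + 0.5) minus its mean over the 6 libraries, for the 42 tested collagen genes (rows, by class) in each library (columns, vincristine left of the black line, vehicle right of it). Vincristine library 3 and vehicle library 2 are blue for most genes and vehicle library 3 is red for most, while Col28a1, Col16a1 and Col23a1 depart from this.

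Summed over a class, fibrillar genes were at 6656, 5440 and 2941 CPM in vincristine and 5502, 3541 and 8235 CPM in vehicle libraries, a factor of 2.80 from lowest to highest. The same factor was 2.08 for type VI, 1.87 for fibril-associated, 1.55 for type IV, 1.43 for basement membrane zone and 1.42 for transmembrane genes, and 1.36 for Col26a1 with Col28a1. The short-chain genes came second, with a factor of 2.28. Of 4 marker lists of tissues that make collagen, the osteoblast list had its highest sums in vincristine library 1 and vehicle library 3, where fibrillar collagen was also highest. The fibroblast, perineurial and meningeal, and chondrocyte lists were lowest in vincristine library 3, as fibrillar collagen was. The osteoblast list was lowest in vehicle library 2. Of the 4 lists, only the osteoblast list had both within-group orders of fibrillar collagen. These were 1 above 2 above 3 in vincristine and 3 above 1 above 2 in vehicle, with vincristine libraries 2 and 3 close (43.4 and 41.9 CPM). Over all 6 libraries ranked together, no list had the order of fibrillar collagen. The 11 osteoblast markers, of which 10 were tested, 0 were called and 0 were at 0 in all libraries, summed to 78.4, 43.4 and 41.9 CPM in vincristine and 38.5, 31.3 and 70.2 CPM in vehicle libraries. Bglap, the osteocalcin gene of bone-forming cells, was at 3.72, 0.313 and 0.424 CPM in vincristine and 0.672, 0.521 and 6.60 CPM in vehicle libraries. The libraries high in Bglap, vincristine library 1 and vehicle library 3, were those highest in Col1a1, Col11a2 and Col22a1. The 11 fibroblast markers, 0 called, summed to 2098, 1856 and 1404 CPM in vincristine and 2049, 1765 and 1693 CPM in vehicle libraries. The 10 perineurial and meningeal markers, 0 called by edgeR and 1 by DESeq2 as lower, summed to 2710, 2240 and 1550 CPM in vincristine and 3115, 1897 and 2292 CPM in vehicle libraries. The 10 chondrocyte markers, 6 of them tested and 0 called, summed to 58.8, 65.6 and 50.1 CPM in vincristine and 63.8, 56.8 and 64.3 CPM in vehicle libraries, and the cartilage matrix genes Matn1, Matn3 and Ucma were below 0.24 CPM in each library. The part of bone, fibroblast, sheath or cartilage cells in the spread of collagen levels was not tested.

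**Figure D4:**
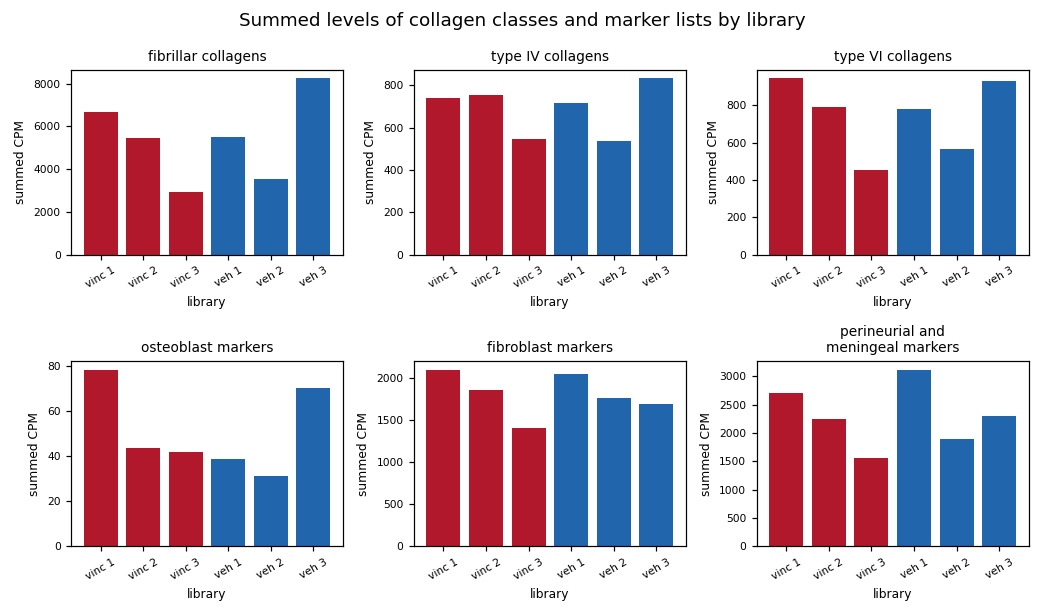
Summed CPM of fibrillar, type IV and type VI collagens and of osteoblast, fibroblast and perineurial and meningeal markers, as 1 bar for each library (vincristine left, vehicle right). Vincristine library 3 is the lowest or near the lowest bar in the collagen panels, and vincristine library 1 and vehicle library 3 hold the highest bars for osteoblast markers.

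Ratios between chains of the same collagen type varied less than the levels themselves. Per kilobase, Col4a1 over Col4a2 was 1.61, 1.76 and 1.67 in vincristine and 1.72, 1.66 and 1.81 in vehicle libraries. Col6a1 over Col6a2 was 0.982, 0.991 and 1.06 in vincristine and 1.04, 1.08 and 1.02 in vehicle libraries, and Col6a3 over Col6a1 lay between 0.305 and 0.329 in vincristine and between 0.294 and 0.327 in vehicle libraries. From lowest to highest library these ratios moved by a factor of 1.12, 1.10 and 1.12, beside 1.59 for the level of Col4a1 and 1.95 for that of Col6a1. Col5a1 over Col5a2 moved by 1.16 and Col4a3 over Col4a4 by 1.18. Other pairs were less constant, with a factor of 1.66 for Col4a5 over Col4a6, 1.61 for Col8a1 over Col8a2 and 1.37 for Col1a1 over Col1a2. Col1a1 over Col1a2 was 0.904, 0.835 and 0.734 in vincristine and 0.738, 0.725 and 0.991 in vehicle libraries. It was highest in vehicle library 3, followed by vincristine library 1. Col3a1 over Col1a1 was 1.08, 1.25 and 1.12 in vincristine and 1.46, 1.30 and 0.795 in vehicle libraries, lowest in vehicle library 3. The value of a ratio depends on the transcript lengths used, so none gives a count of chains or says which of a pair is higher. With the union of all exons, Col1a1 over Col1a2 averaged 1.73 in vincristine and 1.72 in vehicle libraries, and Col3a1 over Col1a1 averaged 0.721 in vincristine and 0.745 in vehicle libraries. In none of the 10 ratios computed were the groups separate.

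**Figure D5:**
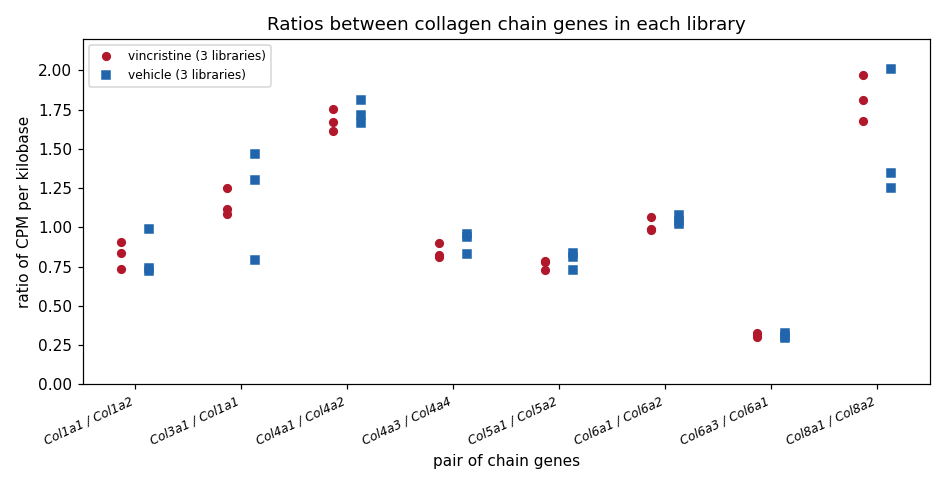
Ratio of CPM per kilobase between pairs of collagen chain genes, with 1 point for each library (circles, vincristine; squares, vehicle). Points of Col4a1 over Col4a2 and of Col6a1 over Col6a2 lie close together in both groups, and those of Col3a1 over Col1a1 and Col8a1 over Col8a2 lie further apart in vehicle than in vincristine libraries.

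Genes that make, bind or organise collagen were likewise not called, 0 of 55 tested by edgeR, with 2 at an unadjusted p under 0.05, and 0 by DESeq2. Over all genes tested edgeR called 0.359%, 11.4% had an edgeR unadjusted p under 0.05, and DESeq2 called 3.41%. Enzymes and chaperones of collagen synthesis, 30 genes from the prolyl and lysyl hydroxylases to the lysyl oxidases, had a median log2 fold change of 0.07, with 18 above 0 and 12 below, and ranged from -0.41 to 0.43. P4ha2, a subunit of prolyl hydroxylase, was at 15.6, 15.8 and 16.0 CPM in vincristine and 12.996, 12.5 and 14.4 CPM in vehicle libraries (log2 fold change 0.25 ± 0.11, edgeR adjusted p = 0.477). Its groups did not overlap, which was so, in either direction, for 21.0% of all genes tested. Tll1, a protease that trims procollagen, was at 18.5, 14.4 and 10.6 CPM in vincristine and 21.5, 16.0 and 20.2 CPM in vehicle libraries (log2 fold change -0.41 ± 0.22, edgeR adjusted p = 0.538). The 10 collagen receptors had a median of 0.12. Itga2, the integrin chain of collagen receptors on platelets and epithelium, was at 9.68, 7.83 and 7.55 CPM in vincristine and 6.05, 4.17 and 6.85 CPM in vehicle libraries, which did not overlap (log2 fold change 0.55 ± 0.22, edgeR adjusted p = 0.410). Gp6, the platelet collagen receptor, was at 4.26, 0.627 and 1.08 CPM in vincristine and 0.616, 0.417 and 0.600 CPM in vehicle libraries (log2 fold change 1.77 ± 0.74, edgeR adjusted p = 0.430), a difference carried mainly by vincristine library 1. Fibril partners, 15 tested of 16, had a median of -0.00, with Thbs4, a thrombospondin of tendon and nerve, at 0.33 ± 0.17 and Comp, the cartilage thrombospondin, at -0.58 ± 0.30 (edgeR adjusted p = 0.515 and 0.528). Neither passed the threshold.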

How the data were processed

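RNA of 6 pooled ganglion samples, 3 vincristine and 3 vehicle, was sequenced from stranded total RNA libraries as single-end reads of 75 nucleotides, per the labels. The authors deposited unnormalized counts, 1 whole number of reads for each gene symbol and library. The submitters' processing notes name STAR, SAMtools and HTSeq with the mm10 (GRCm38) build, without versions, annotation or strand setting. The counter's summary lines were left out of library sizes; of all tallied alignments, 14.8% to 24.8% fell outside genes and 31.1% to 40.5% were not unique. Groups come from the sample titles. The extraction protocol calls each pool a biological replicate, and p-values measure the spread between pools.

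Counts were fitted with edgeR 4.0.16 (R 4.3.3): filterByExpr (minimum count 10) kept 16706 genes, TMM scaling, estimateDisp and glmQLFit (robust), treatment as the only term, 4 residual degrees of freedom, two-sided glmQLFTest with Benjamini-Hochberg adjustment over all genes and a threshold of 0.05. SE is the log2 fold change divided by the square root of F. Intervals are 95%. Spread used log2(CPM + 0.5). Levels were divided by the length of the transcript with the longest coding sequence in GENCODE M21. Depth differs up to a factor of about 2.13 between libraries and limits genes of few reads. Alternatives used DESeq2 1.42.0, limma 3.58.1, other scalings, filters and dispersion methods, a replicate block and each library left out. The edgeR, DESeq2 and limma-voom fits at their main settings were tested on counts simulated gene by gene, without shifts shared by the genes of a library. The other alternatives were not tested in this way.

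Members and gene lists were chosen with earlier results of these data known. Described with values were all called members, the 2 smallest p of each class, the highest per kilobase of each class and the cartilage types; others were added after their values were seen. Of the list entries 1 had no match. Gene positions and exon overlaps are from GENCODE M21; promoter windows are from RefSeq, GRCm38.p6.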

Additional observations from a re-analysis of the deposited data

How the results depend on the processing

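No collagen gene passed the threshold under any of the 20 alternatives. The median log2 fold change of the members, -0.09, ran from -0.11 to -0.08 under the 8 alternatives that keep all libraries and from -0.30 to 0.12 with 1 left out, turning positive without vincristine library 3 or vehicle library 3. The summed level of each class, under the 8 alternatives that apply to it, moved by less than the spread between replicates. The number of all genes called, 60, did move: it was 569 with DESeq2, 474 with limma-voom and sample quality weights, 99 with no filter on low counts and 261 with the replicate number as a block. It ranged from 0 to 638 with each library left out, 0 being the edgeR count without vehicle library 1, 2 or 3, where DESeq2 called 331, 212 and 328 genes, and 1462, 1063 and 1409 had an edgeR p under 0.05 before adjustment. The other scalings, the stricter filter and the newer dispersion method gave 46 to 63. Among the genes that make or bind collagen, 0 to 1 were called with a library left out, Pcolce2 without vincristine library 1 and Gp6 without vincristine library 2, each by DESeq2 alone. Same-numbered libraries correlated at 0.474, 0.279 and -0.085 in their deviations from the group means, and vincristine library 3 correlated best with vehicle library 2, so the numbers were not taken as pairs. The name of the table of vehicle library 3 also carries the number 4, not 3. With the block 0 collagen genes were called. Of the members chosen for a fit-by-fit check, 15 had a log2 fold change, not called, that changed sign with a library left out. The cause was not tested. The lowest and highest values, by edgeR or DESeq2, were -0.61 and 0.31 for Col1a1, -0.50 and 0.11 for Col1a2, -0.43 and 0.15 for Col3a1, -0.36 and 0.22 for Col11a1, -1.14 and 0.62 for Col11a2, -0.36 and 0.18 for Col12a1, -0.72 and 0.09 for Col13a1, -0.19 and 0.11 for Col15a1, -0.10 and 0.22 for Col23a1, -0.41 and 0.05 for Col26a1, -0.19 and 0.13 for Col4a1, -0.12 and 0.15 for Col4a2, -0.30 and 0.16 for Col6a1, -0.28 and 0.32 for Col8a1 and -0.07 and 0.44 for Col9a3. Members outside that check also spanned 0 over the alternatives. Among them were Col5a1 (-0.29 to 0.12), Col5a2 (-0.28 to 0.18), Col6a2 (-0.27 to 0.23) and Col6a3 (-0.29 to 0.21). Col20a1 (-0.35 to 0.46) and Col22a1 (-0.66 to 0.38) did so more widely. Some of the checked members kept their sign but moved widely over the alternatives: Col10a1 between -1.33 and -0.22, Col6a5 between -0.97 and -0.05, Col6a6 between -0.98 and -0.08 and Col4a5 between -0.64 and -0.10. With sample quality weights Col4a1 was at 0.09, and with the replicate block Col8a1 was at 0.00. Depth limits Col10a1, Col9a1, Col17a1, Col4a6, Col6a4, Col6a6 and Col7a1 most.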
